A study of Mus musculus with 16 samples.

Results

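A set of 34 mouse genes of glycolysis and the hypoxia response was taken by symbol, and all 34 were found among the 20056 symbols of the table and passed the filter on low values in every comparison. The set held 2 glucose transporters, 15 glycolytic enzymes, 2 regulators of phosphofructokinase, 5 genes of pyruvate and lactate handling, 4 genes of oxygen sensing (the HIF alpha subunits and their hydroxylases) and 6 hypoxia targets. They were followed in poly(A)-selected RNA from sorted mesenchymal stem cells (MSCs, the stromal precursors of marrow) and from sorted cells labelled as osteoblasts (OBs, the bone-forming cells). The 4 groups were MSCs of miR-9-1-deficient mice, MSCs of wild-type mice, OBs of miR-9-1-deficient mice and OBs of wild-type mice, with 4 libraries each. Deficient mice were made with CRISPR/Cas9 and lack the product of Mir9-1, 1 of the loci that encode the microRNA miR-9, and the labels name no cell-type-specific driver. The labels give an animal number that recurs in both cell types, and mice are lettered here by those numbers as E to H (deficient) and A to D (wild-type). Strain, sex, age and sort gates are not in the labels. The question of the study was what miR-9-1 does in the marrow niche where lymphocytes arise.

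Glycolysis breaks glucose down to pyruvate in the cytosol, and low oxygen switches on many of its genes together with genes for blood vessel growth and mitophagy. In low oxygen the prolyl hydroxylases Egln1 and Egln3 lose activity, and the alpha subunits Hif1a and Epas1 (HIF-2 alpha) escape degradation, pair with Arnt and bind the short DNA motif ACGTG or GCGTG. HIF regulation of the alpha subunits is largely at the level of protein, which was not measured here. Marrow and bone are low in oxygen, and both osteoblast-lineage cells and blood progenitors draw on glycolysis. Many glycolytic enzymes and the hypoxia targets respond to the same HIF factors, and their transcripts were therefore set side by side.

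Read totals recovered from the table ran from 10148197 to 14246986 in MSCs and from 15543693 to 18962771 in OBs. Values are normalized counts, which are read counts divided by 1 size factor per library. In bulk RNA, fewer cells of a type and less RNA per cell cannot be told apart. Blood progenitor markers (8 genes, among them Kit and Ptprc) had a mean log2 level of 10.75 to 11.04 in deficient OBs and 10.92 to 11.07 in wild-type OBs, above the 8.62 to 8.85 of deficient MSCs and the 8.95 to 9.31 of wild-type MSCs. Osteoblast markers (12 genes) had a mean log2 level of 6.60 to 9.02 in deficient OBs and 9.53 to 10.4 in wild-type OBs, no higher there than in wild-type MSCs, at 10.4 to 10.8. The libraries are therefore called OB libraries by their label alone. Every OB library held both Xist and the Y-linked gene Ddx3y, so its RNA may not come from 1 mouse, and p-values for OBs measure only the spread between these libraries. In MSCs, Ddx3y lay at 1848 to 3355 in A, E and F and at 29.8 to 78.2 in the other 5 libraries. The same mean was 8.59 to 9.74 in deficient MSCs for osteoblast markers, and B lineage markers (8 genes) lay at 3.95 to 5.07 in deficient MSCs and 6.50 to 7.07 in wild-type MSCs. Not every marker followed its list. Among osteoblast markers, Spp1 lay at 22899 to 46516 in deficient and 12140 to 26276 in wild-type MSCs, and Ibsp at 17681 to 47688 and 15871 to 28186. Among B lineage markers, Ebf1 lay at 1811 to 3231 in deficient and 1447 to 2344 in wild-type MSCs. Skeletal muscle markers (14 genes) had a mean log2 level of 6.16 in G and 7.63 in H among deficient MSCs, while wild-type MSCs reached 4.65 at most. Some did not follow, among them Actn3 (161 in G and 146 in H, with wild-type MSCs up to 168). Stroma markers (12 genes) had a mean log2 level of 10.5 in E and 11.1 in F among deficient OBs, while wild-type OBs reached 9.66 at most. Ly6a did not follow (245 in E and 311 in F, against 278 to 389 in wild-type OBs), nor did Prrx1, Dcn and Lum in E. Hoxa9, a blood progenitor marker, lay at 449 to 615 in OBs and 433 to 815 in MSCs. Smpd3, an osteoblast marker, lay at 1258 to 4709 in wild-type OBs and 630 to 2242 in wild-type MSCs. Muscle, stroma and Ddx3y levels entered alternative fits, and the part of the osteoblast and B lineage markers in the results was not tested.

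The promoters of the members were searched for the core of the HIF motif on both strands. The window ran from 250 bases before to 50 bases after the annotated start (RefSeq, GRCm38.p6). A promoter was listed for 30 of the 34 members, and Slc2a3, Bnip3l, Ndrg1 and Epas1 are named without one. ACGTG, or CACGT on the other strand, was present in a promoter of 20 of the 30 members (66.7%), against 28.2% of the 11023 genes tested in MSCs that had one. By promoter the shares were 52.3% of 44 and 24.3% of 14033. Counting GCGTG as well raised them to 27 of 30 members (90%) and 65.4% of genes tested. The E-box CACGTG, which overlaps ACGTG and is bound by other factors, was present in 6 of 30 members (20%) and in 11.3% of genes tested. Median CpG counts per window were 20 in the members and 19 in genes tested. A match to these letters is a description and does not show binding. The promoters of 4 genes are shown 5′ to 3′ in the direction of the gene, because the values of their genes are described at length below. Capitals mark ACGTG or GCGTG in either orientation. 
Adm promoter (chr7:110627407-110627706, plus strand): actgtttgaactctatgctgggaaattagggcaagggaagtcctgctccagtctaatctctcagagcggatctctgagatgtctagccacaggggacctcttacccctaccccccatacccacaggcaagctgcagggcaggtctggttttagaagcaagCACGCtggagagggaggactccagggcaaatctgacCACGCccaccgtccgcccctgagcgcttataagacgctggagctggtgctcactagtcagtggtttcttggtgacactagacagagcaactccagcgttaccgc
Bnip3 promoter (chr7:138909457-138909756, minus strand): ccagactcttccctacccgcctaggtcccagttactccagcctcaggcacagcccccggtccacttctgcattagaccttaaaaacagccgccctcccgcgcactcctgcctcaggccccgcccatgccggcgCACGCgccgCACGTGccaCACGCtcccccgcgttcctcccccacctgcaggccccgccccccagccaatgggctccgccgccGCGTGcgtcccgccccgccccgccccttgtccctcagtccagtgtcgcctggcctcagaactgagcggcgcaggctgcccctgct
Slc16a3 promoter (chr11:120948817-120949116, plus strand): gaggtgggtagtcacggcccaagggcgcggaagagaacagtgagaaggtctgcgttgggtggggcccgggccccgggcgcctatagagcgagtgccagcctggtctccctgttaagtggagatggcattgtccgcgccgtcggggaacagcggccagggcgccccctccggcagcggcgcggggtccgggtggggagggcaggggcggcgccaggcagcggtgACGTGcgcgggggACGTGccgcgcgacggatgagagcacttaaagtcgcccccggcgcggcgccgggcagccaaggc
Pgk1 promoter (chrX:106186850-106187149, plus strand): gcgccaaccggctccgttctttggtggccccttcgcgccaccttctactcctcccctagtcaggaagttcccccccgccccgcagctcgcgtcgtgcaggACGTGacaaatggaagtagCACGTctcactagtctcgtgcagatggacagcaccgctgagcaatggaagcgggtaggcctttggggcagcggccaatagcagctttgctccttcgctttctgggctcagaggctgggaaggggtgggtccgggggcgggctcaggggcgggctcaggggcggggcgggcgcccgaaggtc
Each of the 4 held at least 2 matches. ACGTG itself was present in 3 of 4 hypoxia targets with a promoter (75%) and in 9 of 15 glycolytic enzymes (60%).

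A mature product of Mir9-1, miR-9-5p, is shown with its seed (bases 2 to 8) in capitals, because the mice lack 1 of its loci. Sites of no other microRNA were searched, and the level of miR-9 in these cells was not measured.
mmu-miR-9-5p: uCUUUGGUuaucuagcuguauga
A site was a match to bases 2 to 8, or a match to bases 2 to 7 with an A opposite base 1. Such a site was present in the longest annotated 3′ UTR (GENCODE M21, GRCm38) of 9 of 34 members (26.5%), against 25.3% of 13479 genes tested in MSCs. Median UTR lengths were 1345 and 1355 bases. The 9 were Hk2 and Pfkfb4 with 2 sites each, and Ndrg1, Slc2a1, Aldoc, Egln3, Epas1, Pdk1 and Pfkp with 1 each. The sites of Ndrg1 and Hk2 are shown, with the 7 paired bases in capitals, since Ndrg1 passed the test in deficient MSCs and Hk2 was the only glycolytic enzyme above 0 there.
Ndrg1 site (chr15:66930673-66930700, minus strand): gtggtggtggACCAAAGgcaagaagcag
Hk2 site, first (chr6:82726777-82726804, minus strand): aggaacccaaACCAAAGctagactcgac
Hk2 site, second (chr6:82726220-82726247, minus strand): ggcaaagaaaACCAAAGgatttgtttca
Pfkfb4, with as many sites as Hk2, had a log2 fold change of the opposite sign in deficient MSCs (log2 fold change -0.59 ± 0.21). Aldoc (-0.81), Egln3 (-0.43) and Pfkp (-0.23) were below 0 there as well, and Slc2a1 (0.23), Pdk1 (0.14) and Epas1 (0.02) above it. The 9 members with a site thus went in both directions.

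Levels between genes were compared per kilobase of exon. Pkm, the pyruvate kinase of the last step, ranked 1st of the 34 in all 4 groups, with 1715 ± 539 in deficient MSCs, 2308 ± 521 in wild-type MSCs, 1593 ± 145 in deficient OBs and 1857 ± 106 in wild-type OBs (normalized counts per kb, SD, n = 4). Aldoa and Ldha filled ranks 2 and 3 in every group. Of the hypoxia targets, 4 stood higher in the order in deficient MSCs. Ndrg1 ranked 5th there and 12th in wild-type MSCs, Bnip3 10th and 20th, Adm 14th and 24th, and Ankrd37 31st and 33rd. Slc16a3 ranked 24th in deficient MSCs and 16th in wild-type MSCs. Aldoc, Eno2, Pfkfb4 and Ankrd37 filled ranks 31 to 34 in every group but wild-type OBs, where Adm ranked 32nd and Aldoc 30th. Gapdh, Pgk1, Pgam1, Tpi1, Ldha, Aldoa and Eno1 have processed pseudogenes in the mouse genome, and how reads that match several copies were counted is not given, so their levels are uncertain. Eno1 was listed beside Eno1b at almost the same value in every library (808, 2102, 1256 and 1021 for Eno1 in deficient MSCs E to H, 808, 2102, 1256 and 1021 for Eno1b), so the reads of the 2 symbols cannot be told apart.

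In miR-9-1-deficient MSCs, 5 of the 6 hypoxia targets had a log2 fold change above 0 (all but Vegfa) and 14 of the 15 glycolytic enzymes had one below 0 (all but Hk2). Of these, 1 target and 0 enzymes passed the test. The groups overlapped for 4 of the targets and 12 of the enzymes. The median log2 fold change was 0.52 over the targets and -0.44 over the enzymes, beside -0.03 over all 14964 genes tested. At an adjusted p under 0.05, 1 member rose, Ndrg1, and 1 fell, Slc16a3, the exporter of lactate. Among all genes tested 0.501% rose and 0.561% fell, so 1 of 34 in each direction is a small count to set beside that background. At an unadjusted p under 0.05, 5 members were above (3 of them hypoxia targets) and 11 below (6 of them glycolytic enzymes), beside 10.7% and 12.1% of genes tested. All 4 deficient libraries lay above all 4 wild-type libraries for 2 members, both hypoxia targets, and below them for 6 members, of which 3 were glycolytic enzymes. Among genes tested, 6.30% had deficient libraries all above and 6.10% all below.

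**Figure D1:**
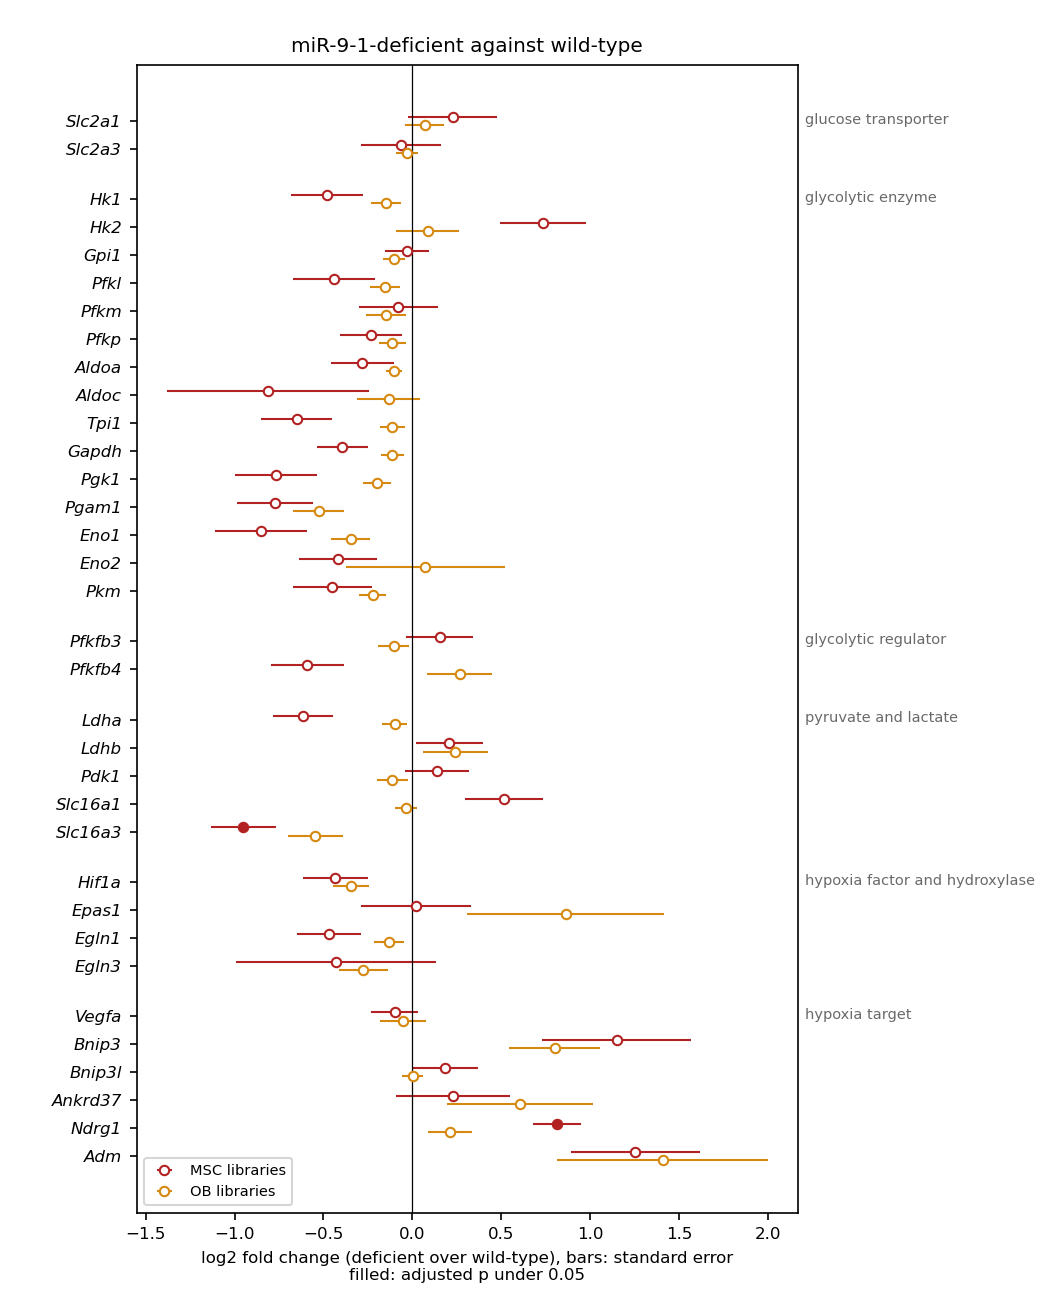
Log2 fold change (miR-9-1-deficient over wild-type, x axis) of each of the 34 members, ordered by role, in MSC libraries (red) and OB libraries (orange), 4 against 4 libraries each, with standard errors as bars and filled points at an adjusted p under 0.05. In MSCs 14 of the 15 glycolytic enzymes lie below 0 and 5 of the 6 hypoxia targets above it, and Ndrg1 and Slc16a3 are filled.

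Ndrg1, a stress-response gene induced by hypoxia, was the hypoxia target that passed (chr15:66929318-66969640, minus strand, protein-coding). Ndrg1 had 5330.3, 4410.1, 4459 and 5222 in deficient MSCs E to H, against 3031, 2619, 2342 and 3075 in wild-type MSCs A to D. Every deficient library was above every wild-type one. Its means were 4855 ± 488 in deficient and 2767 ± 349 in wild-type MSCs (SD, n = 4), log2 fold change 0.81 ± 0.14, limma adjusted p = 0.0285. Adm encodes the vasodilator peptide adrenomedullin. Adm had 988, 452, 519 and 593 in deficient MSCs E to H, against 379, 383, 240.3 and 120.2 in wild-type MSCs A to D. The groups did not overlap, but the spread among deficient libraries was wide (log2 fold change 1.26 ± 0.37, adjusted p = 0.0968). Bnip3, a mitophagy receptor, had 2184, 406, 1098 and 1236 in deficient MSCs E to H, against 516, 456, 315 and 670.2 in wild-type MSCs A to D. Deficient E, G and H were above all wild-type libraries and F lay among them (log2 fold change 1.15 ± 0.42, adjusted p = 0.146). The remaining hypoxia targets overlapped between genotypes. Vegfa, the vessel growth factor, had 2461, 2862, 2323 and 2117 in deficient MSCs and 2376, 2439, 2720.4 and 2896 in wild-type MSCs. Bnip3l, the mitophagy receptor related to Bnip3, had 1702, 883, 1387 and 1432 in deficient MSCs and 1073, 1275, 1148 and 1141 in wild-type MSCs. Ankrd37, a small ankyrin-repeat gene, was the lowest of the targets, with 92.7, 102, 92.8 and 104 in deficient MSCs and 63.8, 99.7, 58.1 and 129 in wild-type MSCs. Vegfa was the 1 target with a fold change below 0 (log2 fold change -0.10 ± 0.13, adjusted p = 0.689), and that sign turned with the muscle level as a covariate (0.01).

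**Figure D2:**
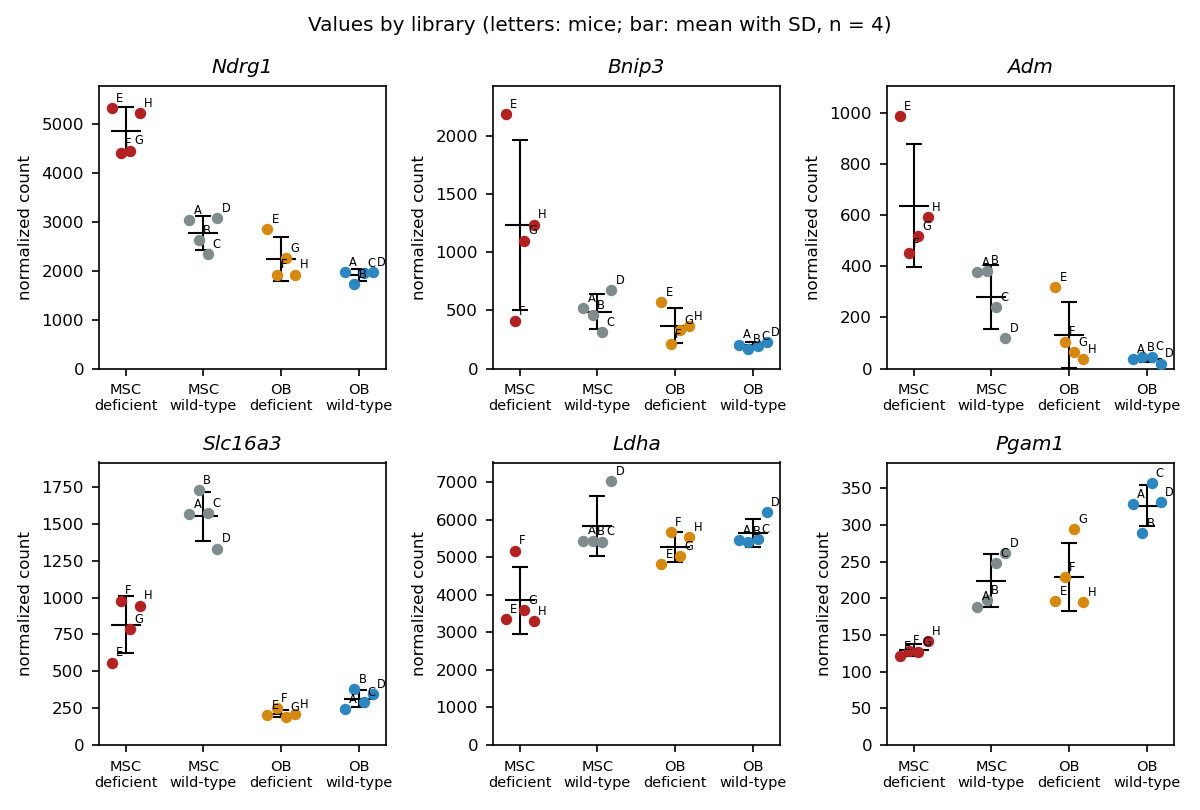
Normalized counts (y axis, from 0) of 3 hypoxia targets (top) and of Slc16a3, Ldha and Pgam1 (bottom) in each library, by group, with mouse letters, the mean and SD (n = 4). Deficient MSC libraries lie above the wild-type ones for Ndrg1 and Adm and below them for Slc16a3, Ldha and Pgam1, and Bnip3 of deficient mouse F lies among the wild-type values.

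Glycolytic enzymes are given in the order of the pathway. Hk1 and Hk2 phosphorylate glucose in the first step, Hk2 being the inducible form. Hk1 had 1174, 2088, 1686 and 1464 in deficient MSCs E to H, against 2016, 2039, 1847 and 3029.6 in wild-type MSCs A to D. Hk2 had 7402, 4576, 3986 and 3751 in deficient MSCs E to H, against 2389.5, 3981, 2164 and 3217 in wild-type MSCs A to D. Hk1 was lower than every wild-type library in deficient E, G and H but not in F, and Hk2 was higher in all 4 deficient libraries than in wild-type A, C and D. The log2 fold changes were -0.48 ± 0.20 for Hk1 (adjusted p = 0.188) and 0.73 ± 0.24 for Hk2 (adjusted p = 0.121). Gpi1, the isomerase of the second step, had 3567, 3169, 3240.5 and 4068 in deficient MSCs and 3389, 3875, 3479 and 3559 in wild-type MSCs, with overlap. The 3 phosphofructokinases commit sugar to glycolysis. Pfkl had 619, 782, 661 and 568 in deficient MSCs and 624, 702, 1035 and 1362 in wild-type MSCs, where C and D were higher than A and B. Pfkm had 438, 486, 639 and 795 in deficient MSCs and 608, 444, 639 and 778 in wild-type MSCs, and Pfkp had 1449.7, 1875, 1447 and 1160.2 and 2070.4, 1915, 1411 and 1561 in the same order, and both overlapped. Of the aldolases, Aldoa had 3413, 6315, 4729 and 4373 in deficient MSCs and 5677, 5065, 5429 and 6232 in wild-type MSCs, and deficient F was the highest of the 8. Aldoc was at 35.2, 18.0, 27.5 and 7.31 in deficient MSCs and 29.1, 31.1, 39.2 and 39.1 in wild-type MSCs, its lowest value being that of deficient H.

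Of the 15 enzymes, Eno1, Aldoc, Pgam1, Pgk1 and Tpi1 had the lowest fold changes, and all but Aldoc act between triose phosphate and pyruvate. Tpi1 had 1154, 2286, 1523 and 1379 in deficient MSCs E to H, against 2201, 2209.98, 2336 and 2969.5 in wild-type MSCs A to D. Tpi1, triose phosphate isomerase, was below all wild-type libraries in deficient E, G and H, and F lay among them (log2 fold change -0.65 ± 0.20, adjusted p = 0.106). Gapdh had 1444, 1929, 1759 and 1748 in deficient MSCs E to H, against 2020.4, 2083, 2159 and 2806 in wild-type MSCs A to D. Pgk1 had 271, 412, 286 and 336 in deficient MSCs E to H, against 432, 580.01, 443 and 821 in wild-type MSCs A to D. Pgam1 had 121, 129, 127 and 142 in deficient MSCs E to H, against 189, 198, 248 and 261 in wild-type MSCs A to D. These 3 enzymes, which carry out successive steps of the payoff phase, did not overlap between genotypes. Their log2 fold changes were -0.39 ± 0.15 for Gapdh (adjusted p = 0.149), -0.77 ± 0.23 for Pgk1 (adjusted p = 0.102) and -0.77 ± 0.21 for Pgam1 (adjusted p = 0.0863). The enolases catalyse the step before pyruvate kinase. Eno1 had 808, 2102, 1256 and 1021 in deficient MSCs and 1999.6, 2003, 1972 and 2905 in wild-type MSCs (log2 fold change -0.85 ± 0.26, adjusted p = 0.106). Eno2, the neuronal form, had 234, 369, 314 and 202 in deficient MSCs and 373, 421, 359 and 309.6 in wild-type MSCs. Pkm had 6633, 12528, 8026 and 7129 in deficient MSCs E to H, against 10600.3, 10932, 9322 and 15306 in wild-type MSCs A to D. For Eno1 and Pkm, deficient F lay above wild-type A, B and C, whereas deficient E, G and H lay below all wild-type libraries. Of the regulators, Pfkfb4, which sets the level of fructose 2,6-bisphosphate, had 168, 276, 203 and 249.9 in deficient MSCs and 336, 291, 323 and 385 in wild-type MSCs, with no overlap (adjusted p = 0.132). Its paralog Pfkfb3 overlapped, with 1980.2, 1112, 1474 and 1859 in deficient MSCs and 1169.8, 1546, 1358 and 1600.5 in wild-type MSCs.

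Slc16a3 (MCT4, chr11:120948480-120960868, plus strand, protein-coding) exports lactate from glycolytic cells and had the largest negative fold change of the 34. Slc16a3 had 559, 979, 784 and 945 in deficient MSCs E to H, against 1568, 1731, 1571 and 1331 in wild-type MSCs A to D. The highest deficient library, F, was below the lowest wild-type library, D. Means were 817 ± 192 in deficient and 1550.5 ± 165 in wild-type MSCs (SD, n = 4), log2 fold change -0.95 ± 0.18, adjusted p = 0.0406. Its relative Slc16a1 (MCT1), which carries lactate and pyruvate in either direction, had 1595, 1106, 1229 and 1661 in deficient MSCs and 828, 1291, 671 and 1201 in wild-type MSCs. Those groups overlapped (log2 fold change 0.52 ± 0.22, adjusted p = 0.198). Ldha, the lactate dehydrogenase subunit that prevails in glycolytic tissue, had 3345, 5179, 3599.9 and 3307 in deficient MSCs, against 5448, 5431, 5423 and 7041 in wild-type MSCs. The groups did not overlap, and F was the deficient library nearest to wild-type (log2 fold change -0.61 ± 0.17, adjusted p = 0.0870). Ldhb, the heart-type subunit, had 250.02, 345, 354 and 338 in deficient MSCs and 265, 241, 336 and 269 in wild-type MSCs. Pdk1, a kinase that inhibits pyruvate dehydrogenase, had 579.9, 702, 812 and 633 in deficient MSCs and 701, 519, 510.3 and 768 in wild-type MSCs, and both genes overlapped. The glucose transporters overlapped as well: Slc2a1 (GLUT1) had 2445, 1456, 1542 and 1901 in deficient MSCs and 1138, 1337, 1404 and 2595 in wild-type MSCs, and Slc2a3 (GLUT3) had 1051, 928, 1344 and 1314 and 920.02, 1501, 1681 and 882 in the same order.

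The oxygen-sensing genes did not pass in MSCs. Hif1a had 2889.9, 3525, 3006 and 2524 in deficient MSCs E to H, against 3525, 3758, 3366 and 5760.2 in wild-type MSCs A to D. Egln1 had 880.4, 1276, 969 and 751 in deficient MSCs E to H, against 1463, 1079.7, 1249 and 1528 in wild-type MSCs A to D. Both were below all wild-type libraries in deficient E, G and H, and F lay at or among the wild-type values. The log2 fold changes were -0.43 ± 0.18 for Hif1a (adjusted p = 0.190) and -0.47 ± 0.18 for Egln1 (adjusted p = 0.159). Epas1 had 3890.01, 2463, 4552 and 4996 in deficient MSCs and 3514, 2079, 6102 and 4619.6 in wild-type MSCs, and Egln3 had 181, 859.6, 269 and 107 and 398, 629, 177 and 332 in the same order. The spread of Epas1 and Egln3 within a genotype exceeded the difference between genotypes.

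The averages of both roles differed among the deficient mice. Averaged over the 15 glycolytic enzymes, the log2 difference from the wild-type mean was -0.52, -0.14, -0.36 and -0.56 in deficient MSCs E to H, against -0.13, -0.05, -0.08 and 0.26 in wild-type MSCs A to D. Averaged over the 6 hypoxia targets it was 0.96, 0.22, 0.53 and 0.64 in deficient MSCs E to H, against 0.04, 0.13, -0.23 and 0.06 in wild-type MSCs A to D. Of the deficient libraries F was nearest to 0 in both, and wild-type D stood above the others for the enzymes. Without deficient F, 13 members passed: Ndrg1, Bnip3 and Adm rose, and Hk1, Tpi1, Pgk1, Pgam1, Eno1, Pkm, Pfkfb4, Ldha, Slc16a3 and Egln1 fell. The share of all genes that passed grew too, to 7.04% that rose and 8.26% that fell. Without any 1 of the other 7 MSC libraries, 0 members passed in limma, with 3 to 6 above and 7 to 12 below at an unadjusted p under 0.05, beside 7.29 to 9.25% and 8.89 to 10.2% of genes tested. The medians kept their signs without each library in turn, from -0.56 to -0.31 for the enzymes (-0.31 without wild-type D) and from 0.46 to 0.65 for the hypoxia targets. With DESeq2, 8 members passed: Hk2, Bnip3, Ndrg1 and Adm rose, and Pgk1, Pgam1, Ldha and Slc16a3 fell, beside 4.49% of genes that rose and 3.39% that fell. Without both muscle-marked libraries G and H, 0 genes passed in limma, with 3 members above and 4 below at an unadjusted p under 0.05 (5.68% and 7.74% of genes tested), and Ndrg1 (0.82 ± 0.18, adjusted p = 0.256) and Slc16a3 (-1.06 ± 0.24, adjusted p = 0.256) kept their size. With the muscle level as a covariate their log2 fold changes were 0.84 (adjusted p = 0.119) and -1.13 (adjusted p = 0.118), and with the Ddx3y level, an alternative added after the data were seen, 0.79 (adjusted p = 0.0602) and -0.91 (adjusted p = 0.0820). By their first 3 digits, animal numbers fall into a series of A, B, E and F, a series of C and G, and a series of D and H. With the series as a covariate the adjusted p was 0.0683 for Ndrg1 and 0.0956 for Slc16a3.

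**Figure D3:**
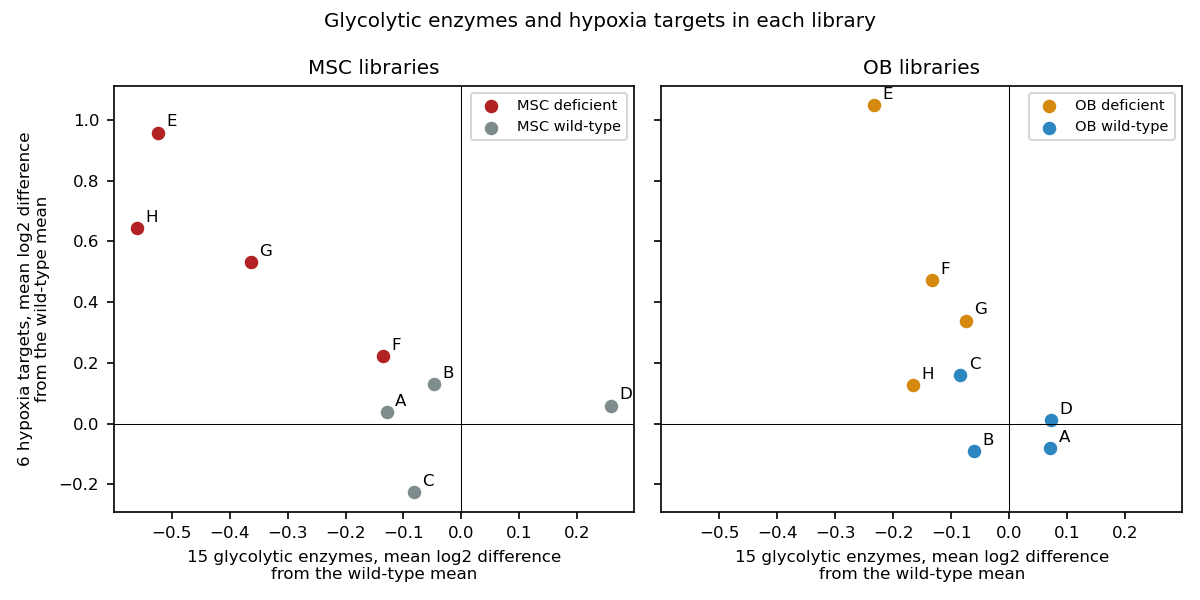
Mean log2 difference from the wild-type mean over the 15 glycolytic enzymes (x axis) and over the 6 hypoxia targets (y axis) in each MSC library (left) and OB library (right), with mouse letters. Deficient MSC libraries E, G and H lie at the upper left, between -0.56 and -0.36 on x and between 0.53 and 0.96 on y, and deficient F lies next to the wild-type libraries.

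In deficient OBs no member passed the test in limma. The mean log2 level of the 12 osteoblast markers was lower in every deficient OB library than in every wild-type one, as given above. Single markers overlapped or ran the other way in some libraries. Spp1 had 14926, 8354, 5904 and 2535 in deficient OBs E to H, against 3876, 4474, 2806 and 6185 in wild-type OBs A to D. The part of these markers in the values of the members was not tested. The median log2 fold change was 0.41 over the hypoxia targets (5 of 6 above 0) and -0.13 over the glycolytic enzymes (13 of 15 below 0), beside -0.02 over 14229 genes tested. Among genes tested, 0.0211% rose and 0.00703% fell. At an unadjusted p under 0.05, 2 members were above, Bnip3 and Adm, and 7 below, beside 4.17% and 4.78% of genes tested. DESeq2 called 1 member, Bnip3 (higher), and edgeR called 0. The deficient libraries lay wholly below the wild-type ones for 2 members, Aldoa and Eno1, and wholly above them for 0, beside 2.99% and 2.47% of genes tested.

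Among hypoxia targets, Bnip3 had 571, 212, 327 and 362 in deficient OBs E to H, against 206, 169.7, 193 and 229 in wild-type OBs A to D. As in MSCs, deficient E, G and H were above all wild-type libraries and F was not (log2 fold change 0.80 ± 0.26, limma adjusted p = 0.379). Adm had 318, 106, 62.9 and 36.8 in deficient OBs and 36.1, 45.5, 46.7 and 19.1 in wild-type OBs, so that E, F and G were above all wild-type libraries (log2 fold change 1.41 ± 0.59, adjusted p = 0.527). Ndrg1 had 2859, 1921, 2252 and 1920.4 in deficient OBs and 1977, 1725, 1958 and 1978 in wild-type OBs, with overlap (log2 fold change 0.21 ± 0.12, adjusted p = 0.630). Library E gave the highest value of all 3 targets in OBs, as the library labelled E did in MSCs. Vegfa had 2272, 2142, 1711 and 1464 in deficient OBs and 2131, 1909, 1835 and 1875 in wild-type OBs. Bnip3l had 1568, 1411, 1584 and 1551 in deficient OBs and 1436, 1559, 1588 and 1520.4 in wild-type OBs. Both overlapped, and Ankrd37 was low throughout, with 33.8, 43.6, 25.6 and 22.6 in deficient OBs and 11.8, 13.0, 29.4 and 32.3 in wild-type OBs.

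Of the enzymes, Eno1 had 1095, 1475, 1306 and 1468 in deficient OBs, against 1709.5, 1604, 1529 and 1938 in wild-type OBs (log2 fold change -0.35 ± 0.11, adjusted p = 0.379). Aldoa had 4167, 4495, 4382 and 4367 in deficient OBs, against 4639, 4635, 4662 and 4761 in wild-type OBs (log2 fold change -0.10 ± 0.05, adjusted p = 0.556). Neither overlapped, and the difference in Aldoa was small beside its level. Pgam1 had 196, 229, 295 and 195 in deficient OBs and 328, 289, 357 and 332 in wild-type OBs, so that deficient G just exceeded wild-type B (log2 fold change -0.53 ± 0.15, adjusted p = 0.316). Pkm had 7003, 8262, 7889 and 8714 in deficient OBs and 9198, 8643, 9371 and 9935 in wild-type OBs, and Pgk1 had 608, 629, 724 and 672 and 778, 684, 769.95 and 792 in the same order. For both, 1 deficient library exceeded the lowest wild-type one. The 8 enzymes Hk1, Gpi1, Pfkl, Pfkm, Pfkp, Aldoc, Tpi1 and Gapdh had log2 fold changes between -0.16 and -0.10, and all overlapped. Hk1 had 3447, 4006, 4347 and 4662 in deficient OBs and 4426, 4443, 4688 and 4580.4 in wild-type OBs. Gpi1 had 5167, 5349, 5768 and 5992 in deficient OBs and 5871, 5786, 6067 and 6167 in wild-type OBs. In Hk1 and Gpi1 deficient E was the lowest library. Pfkl had 1400.2, 1718, 1664 and 1695 in deficient OBs and 1699, 1708, 1773 and 2028 in wild-type OBs, Pfkm 599, 796, 850.2 and 772 and 790.3, 937, 798 and 801, and Pfkp 771, 881, 869 and 822 and 939, 975, 881 and 819. Tpi1 had 2257, 2652, 2517 and 2531 in deficient OBs and 2719.8, 2465, 2662 and 2923 in wild-type OBs, and Gapdh had 2770.3, 3202, 3100.3 and 3257 and 3384, 3131, 3359 and 3439.5 in the same order. Deficient E was again the lowest library for Pfkl, Pfkm, Pfkp, Tpi1 and Gapdh. Aldoc had 93.3, 115, 145 and 149 in deficient OBs and 145, 130.1, 124 and 144 in wild-type OBs. Hk2 and Eno2 were the 2 enzymes with a fold change above 0. Hk2 had 2993, 1737, 1917 and 1508 in deficient OBs and 1922, 1928, 1717 and 1851 in wild-type OBs, and only E was above the wild-type libraries. Eno2 had 74.2, 46.2, 46.1 and 27.8 in deficient OBs and 86.4, 34.5, 21.1 and 56.5 in wild-type OBs, near the lower end of the members.

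Slc16a3 had 205, 250.1, 188 and 209.7 in deficient OBs and 244, 377, 292 and 344 in wild-type OBs, so that deficient F just exceeded wild-type A (log2 fold change -0.55 ± 0.15, adjusted p = 0.323). Ldha had 4830.3, 5666, 5043 and 5533 in deficient OBs and 5459, 5422, 5489 and 6199 in wild-type OBs, and Ldhb had 219, 190.2, 154 and 152 and 182, 127, 172 and 125 in the same order. Both overlapped, as did Pdk1 (1031, 1024, 1268 and 1265 in deficient and 1171, 1186, 1324 and 1256 in wild-type OBs) and Slc16a1 (1552, 1501, 1511 and 1512 and 1457, 1698, 1611 and 1475). Pfkfb3 had 1585, 1269, 1346 and 1294 in deficient OBs and 1506, 1418, 1343 and 1636 in wild-type OBs, and Pfkfb4 had 116, 153, 126 and 189 and 122, 101, 123 and 133 in the same order. Slc2a1 had 1751, 1247, 1299.8 and 1377 in deficient OBs and 1393, 1181, 1364 and 1434 in wild-type OBs, and Slc2a3 had 1452, 1477, 1458 and 1645 and 1515, 1477, 1633 and 1529 in the same order. The regulators and the glucose transporters overlapped between genotypes.

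Hif1a had 1732, 1807, 1545 and 1370.2 in deficient OBs, against 2115, 2052, 1769.7 and 2245 in wild-type OBs. Deficient F just exceeded wild-type C (log2 fold change -0.34 ± 0.10, adjusted p = 0.361), and with the stroma level as a covariate Hif1a passed (-0.44, adjusted p = 0.0259). Epas1 had 2953, 1771, 688 and 347 in deficient OBs, against 698, 568, 528 and 545 in wild-type OBs. The high values were those of E and F, the libraries with the high stroma markers. Without E and F its log2 fold change was -0.25 (adjusted p = 0.762), against 0.86 with them (adjusted p = 0.661). The same change took Adm to 0.45 (adjusted p = 0.767), while Bnip3 stayed at 0.79 (adjusted p = 0.0581). Egln1 had 687, 787, 707 and 707 in deficient OBs and 746, 716, 868 and 839 in wild-type OBs, and Egln3 had 248, 326, 304 and 380.3 and 434, 377, 353 and 349 in the same order, and both overlapped.

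The genotype effects in OBs and MSCs were compared in 1 fit of all 16 libraries (OB effect minus MSC effect). No member passed, and 0.0129% of genes did. At an unadjusted p under 0.05 the difference was above 0 for 4 members and below 0 for 2, beside 5.51% and 5.97% of genes tested. Pfkfb4 had the largest of these 6 (difference 0.86 ± 0.27 on the log2 scale, adjusted p = 0.294), with an effect of 0.27 in OBs and -0.59 in MSCs. Ndrg1 had the smallest p in the other direction (difference -0.60 ± 0.18, adjusted p = 0.291), with an effect of 0.21 in OBs and 0.81 in MSCs. For Ldha, Tpi1 and Pgk1 the differences were 0.51, 0.54 and 0.57, and for Slc16a1 -0.55 (adjusted p between 0.349 and 0.410). Without deficient MSC library F, Tpi1 (0.73, adjusted p = 0.0267) and Ldha (0.66, adjusted p = 0.0228) passed. Over the 6 hypoxia targets the median difference was -0.07, and over the 15 enzymes 0.28, beside 0.04 over 15556 genes.

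Between cell types, 8 glycolytic enzymes rose and 3 fell in OBs against MSCs of deficient mice, and 8 rose and 5 fell in wild-type mice. Of the hypoxia targets 0 rose and 4 fell in deficient mice, and 1 rose and 5 fell in wild-type mice. Over all members, in deficient mice, 11 members rose and 12 fell in OBs against MSCs, beside 29.0% and 30.6% of genes tested. In wild-type mice, 11 rose and 16 fell, beside 34.4% and 35.5%. Differences between the 2 sorts were thus common among all genes, and the counts of members are to be read against that. Markers of blood progenitors and stroma differ between the sorts as given above. Neutrophil markers (10 genes) had a mean log2 level of 9.17 to 9.78 in deficient OBs against 11.1 to 12.1 in deficient MSCs. In wild-type mice they lay at 9.05 to 11.3 in OBs and 10.9 to 13.0 in MSCs. Prtn3 and, in deficient mice, Mpo ran the other way. The part of all these markers in the differences of the members was not tested. The median log2 fold change (OB over MSC) of the enzymes was 0.67 in deficient and 0.45 in wild-type mice, and that of the hypoxia targets -1.36 and -0.89, with all genes at -0.02 and 0.01. Both sets of mice share no library. With the mouse as a block, Slc2a1, Egln1 and Vegfa also fell in deficient mice (adjusted p = 0.0241, 0.0327 and 0.0222), and Pkm in wild-type mice (adjusted p = 0.0245).

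Isoforms of 1 step went in opposite directions in both genotypes for Hk1 and Hk2 and for Pfkl and Pfkp. Hk1 rose in OBs in both genotypes, with 4115 ± 520.1 in deficient OBs against 1603 ± 385 in deficient MSCs, and 4534 ± 124 in wild-type OBs against 2233 ± 538 in wild-type MSCs (SD, n = 4). Hk2 fell, with 2039 ± 658 in deficient OBs against 4929 ± 1685 in deficient MSCs, and 1854 ± 98.1 in wild-type OBs against 2938 ± 829.8 in wild-type MSCs. Pfkl rose by 1.30 ± 0.13 and 1.02 ± 0.21 on the log2 scale in deficient and wild-type mice, whereas Pfkp had -0.81 ± 0.15 and -0.93 ± 0.12 and fell in both. Aldoc, the brain-type aldolase, rose by 2.63 ± 0.46 and 1.95 ± 0.24, and Eno2 fell, with -2.54 ± 0.33 and -3.03 ± 0.37. Gpi1 (0.67 and 0.74), Gapdh (0.85 and 0.57), Pgk1 (1.03 and 0.46) and Pgam1 (0.80 and 0.55) rose in both genotypes, given as log2 fold changes in deficient and wild-type mice. The call of Pgk1 in wild-type mice (adjusted p = 0.0435) held in 1 of 8 fits that left out 1 library, the one without MSC library D, with adjusted p up to 0.121. Tpi1 rose in deficient mice only by the threshold (0.70, adjusted p = 0.0106, against 0.16, adjusted p = 0.193, in wild-type mice), and Pfkm in wild-type mice (0.38, adjusted p = 0.125, in deficient and 0.45, adjusted p = 0.0206, in wild-type mice). Aldoa and Eno1 fell in wild-type mice alone by the threshold (-0.26, adjusted p = 0.00863, and -0.37, adjusted p = 0.0243), and the differences between genotypes for these 4 genes did not pass the test of the difference. In wild-type mice Pfkm missed the threshold without OB library B (adjusted p = 0.0616), and Eno1 without OB library B or C (adjusted p up to 0.0696). Tpi1 missed it in deficient mice without both muscle-marked libraries (adjusted p = 0.0869).

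Slc16a3 was among the members most reduced in OBs, at 213 ± 26.4 in deficient OBs against 817 ± 192 in deficient MSCs, and at 314 ± 58.6 in wild-type OBs against 1550.5 ± 165 in wild-type MSCs. Ldhb fell as well (-0.85 ± 0.19 in deficient and -0.88 ± 0.18 in wild-type mice), as did Pfkfb4 (-0.61 ± 0.23 and -1.47 ± 0.16). In deficient mice the call of Pfkfb4 (adjusted p = 0.0435) held in 2 of 8 fits that left out 1 library, those without MSC library E or OB library H, and in 4 of 8 other settings, with adjusted p up to 0.151. Pdk1 rose (0.75 ± 0.14 and 1.00 ± 0.14). Ldha passed in deficient mice (0.47, adjusted p = 0.0261, against -0.04, adjusted p = 0.715, in wild-type mice), but leaving out 1 library kept the call in 2 of 8 fits, those without MSC library F or OB library E, and without both muscle-marked libraries the adjusted p was 0.186. Slc16a1 passed in wild-type mice (0.14, adjusted p = 0.410, in deficient and 0.69, adjusted p = 0.00607, in wild-type mice). The transporter Slc2a3 passed in deficient mice (0.39, adjusted p = 0.0315, against 0.36, adjusted p = 0.114, in wild-type mice), a call kept in 3 of 8 fits without 1 library, those without MSC library G or H or OB library E (adjusted p up to 0.0851). The differences between genotypes for Ldha, Slc16a1 and Slc2a3 did not pass the test of the difference. Of the oxygen-sensing genes, Epas1, known from endothelium and stroma, fell (-1.86 ± 0.58 in deficient and -2.70 ± 0.27 in wild-type mice), as did Hif1a (-0.89 ± 0.14 and -0.97 ± 0.16). The call of Epas1 in deficient mice (adjusted p = 0.0198) was lost without MSC library G or H or OB library G (adjusted p up to 0.0578) and without both muscle-marked libraries, and with edgeR (adjusted p = 0.0598). Egln1 passed in wild-type mice (-0.74, adjusted p = 0.00023) and Egln3 in neither (adjusted p = 0.688 and 0.755). Stroma markers and Epas1 were both lower in OBs, and the part of the cell mixture in the difference was not tested.

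Among the hypoxia targets, 4 fell in both genotypes. The log2 fold changes in deficient and wild-type mice were -2.68 ± 0.57 and -2.83 ± 0.41 for Adm, -1.65 ± 0.29 and -2.03 ± 0.44 for Ankrd37, -1.60 ± 0.47 and -1.25 ± 0.21 for Bnip3, and -1.13 ± 0.15 and -0.53 ± 0.10 for Ndrg1. Without both muscle-marked libraries Bnip3 missed the threshold in deficient mice (adjusted p = 0.113). Vegfa fell in wild-type mice (-0.43, adjusted p = 0.00093) and missed the threshold in deficient mice (-0.38, adjusted p = 0.0669). Bnip3l, which is used by maturing red cells to clear mitochondria, was the exception: it rose in wild-type OBs (0.40 ± 0.08, adjusted p = 0.000772). In deficient mice Bnip3l did not pass (0.22 ± 0.18, adjusted p = 0.331). Erythroid markers (10 genes) had a mean log2 level of 9.65 to 10.2 in deficient OBs against 7.22 to 9.12 in deficient MSCs, and 9.76 to 10.3 in wild-type OBs against 7.61 to 8.48 in wild-type MSCs. Their part in the level of Bnip3l was not tested. Quantile normalization turned the sign of Aldoa (0.09), Pkm (0.35) and Ldha (0.36) in wild-type mice and of Pkm (0.53) in deficient mice.

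**Figure D4:**
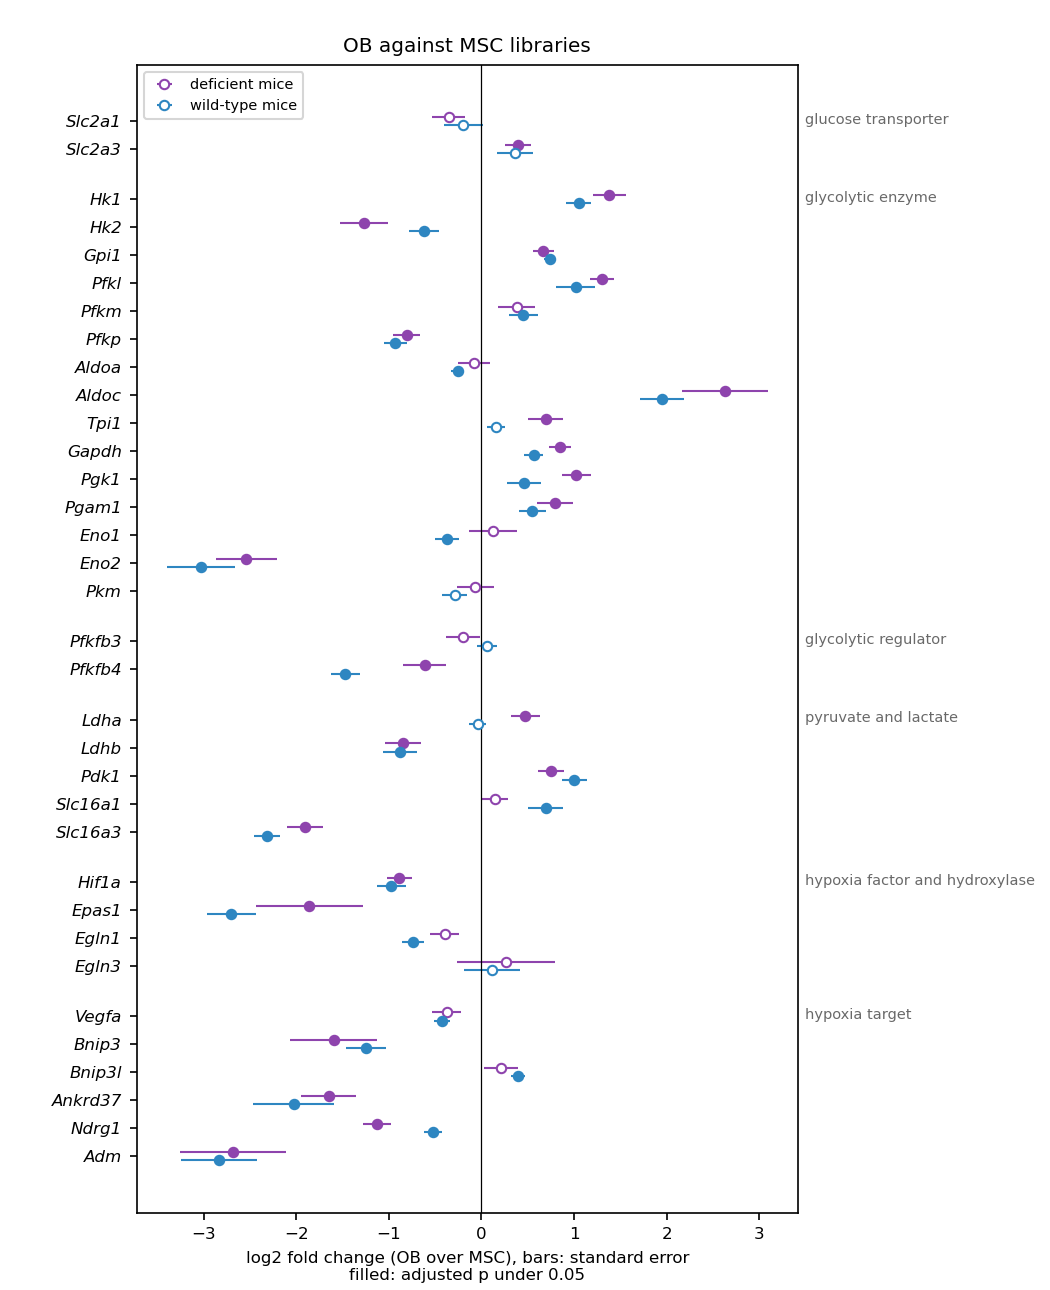
Log2 fold change (OB over MSC libraries, x axis) of each of the 34 members, by role, in deficient mice (purple) and wild-type mice (blue), 4 against 4 libraries each, with standard errors as bars and filled points at an adjusted p under 0.05. Hk1, Pfkl and Aldoc lie above 0 while Hk2, Pfkp and Eno2 lie below it, and 5 of the 6 hypoxia targets lie below 0 in both genotypes.

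Within families the mix of isoforms was taken per kb of exon, as a share that does not depend on the library's size factor. In MSCs, Hk2 made up 90.0, 75.8, 77.2 and 78.6% of Hk1 plus Hk2 in deficient mice E to H, against 62.9, 73.6, 62.6 and 60.3% in wild-type mice A to D. Slc16a3 made up 22.6, 42.4, 34.7 and 32.1% of the 2 lactate transporters in deficient MSCs, against 61.2, 52.7, 66.1 and 48.0% in wild-type MSCs. Ldhb made up 13.6, 12.3, 17.2 and 17.7% of Ldha plus Ldhb in deficient MSCs, against 9.30, 8.55, 11.6 and 7.46% in wild-type MSCs. In all 3 families the genotypes did not overlap in MSCs, deficient mouse F included, although F held the deficient value nearest to wild-type each time. In OBs, Slc16a3 made up 9.90, 12.2, 9.38 and 10.4% in deficient mice, against 12.2, 15.6, 13.1 and 16.2% in wild-type mice, with deficient F (12.18%) just under wild-type A (12.21%). The Hk2 share in OBs overlapped (41.0 ± 10.1% in deficient and 36.9 ± 1.86% in wild-type OBs), as did that of Ldhb (6.71 ± 1.42% and 5.39 ± 1.19%). With 4 against 4 libraries the smallest two-sided p of the exact permutation test is 0.0286, which these 4 shares gave. Adjusted over the 22 shares compared it was 0.157, so none passed. The shares of Eno2, Aldoc, Pfkl, Pfkm, Pfkp, Slc2a3, Epas1 and Pfkfb4 overlapped between genotypes in MSCs, with exact permutation p from 0.114 to 0.914. Ldha is among the genes with pseudogenes, so its share is less certain than those of Hk2 and Slc16a3.

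**Figure D5:**
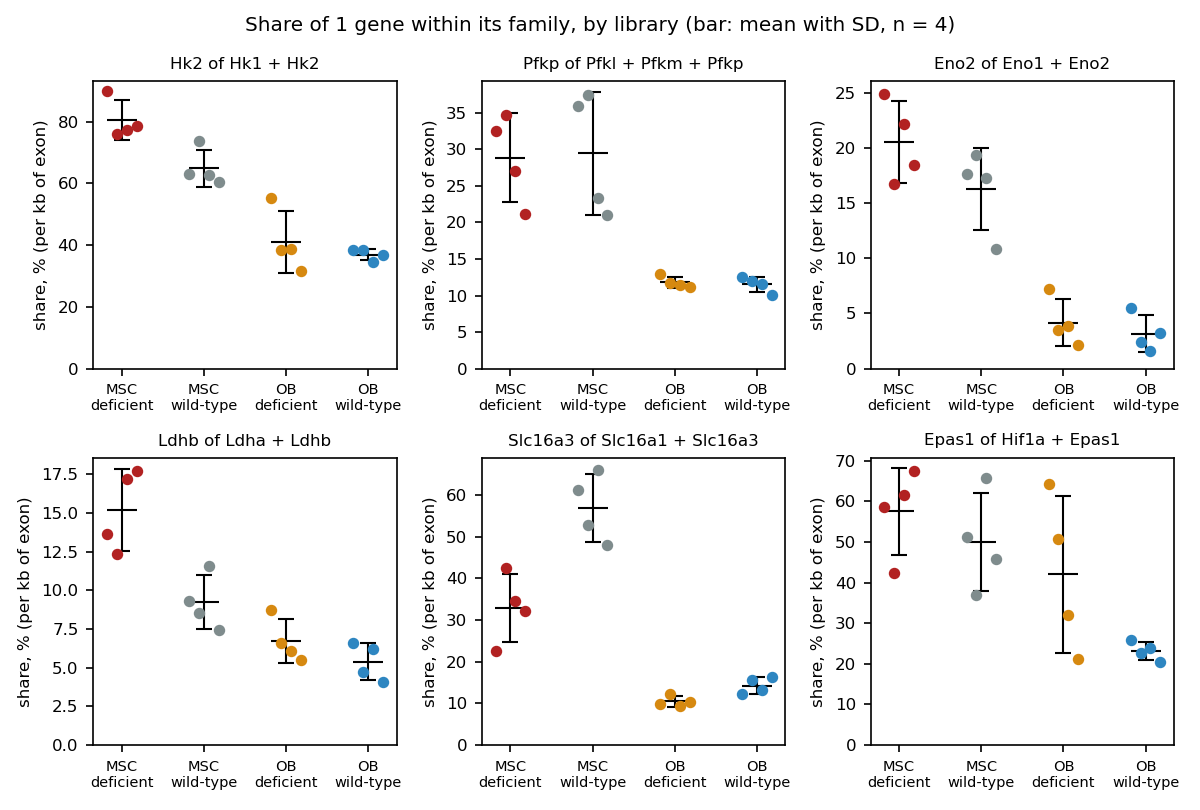
Share of 1 gene within its family (y axis, percent of the summed counts per kb of exon, from 0) in each library, by group, with the mean and SD (n = 4). In MSCs the deficient libraries lie above the wild-type ones for Hk2 (75.8 to 90.0 against 60.3 to 73.6%) and Ldhb and below them for Slc16a3.

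Other genes of the same pathways gave the setting. Of 42 other hypoxia genes tested in MSCs, 1 passed, Stc2, a secreted glycoprotein induced by hypoxia and by other stresses. With 0.501% of all genes tested rising, 1 of 42 is a small count. Stc2 had 968, 467, 501 and 889.9 in deficient MSCs E to H, against 135, 233, 196 and 169.8 in wild-type MSCs A to D. The groups did not overlap (log2 fold change 1.89 ± 0.28, adjusted p = 0.0253). The smallest p among those below 0 was that of Car12 (log2 fold change -2.68 ± 0.60, adjusted p = 0.0558). At an unadjusted p under 0.05, 10 of the 42 were above and 6 below, beside the 10.7% and 12.1% of genes tested given above, and their median log2 fold change was 0.17. Of 36 other genes of glycolysis and its branches tested, 0 passed, with 2 above and 8 below at an unadjusted p under 0.05, against the same background. The smallest p belonged to Pdk4, a kinase that restrains pyruvate oxidation (log2 fold change 2.65 ± 0.65, adjusted p = 0.0698), and to Gys1, glycogen synthase (log2 fold change -0.82 ± 0.21, adjusted p = 0.0729). Pdk4 had 6617, 392, 2012 and 3235 in deficient MSCs, against 323, 290, 446 and 255 in wild-type MSCs, so that E stood highest and F lay among the wild-type libraries, as for Bnip3. In OBs 0 genes of either list passed in limma: at an unadjusted p under 0.05, 7 of the other hypoxia genes were above and 8 below, and 2 of the other glycolysis genes above and 1 below, beside 4.17% and 4.78% of genes tested. There the smallest p in each direction belonged to Zfp395 (log2 fold change 0.55 ± 0.13, adjusted p = 0.259) and, as in MSCs, Car12, a carbonic anhydrase (log2 fold change -2.60 ± 0.44, adjusted p = 0.103), and among glycolysis genes to Pdk4 (log2 fold change 1.98 ± 0.52, adjusted p = 0.290) and Hk3 (log2 fold change -0.27 ± 0.10, adjusted p = 0.462). Car12 had 49.96, 102, 70.9 and 62.4 in deficient OBs, against 776, 213, 255 and 750.3 in wild-type OBs, with no overlap. In OBs against MSCs, 10 of 36 other glycolysis genes rose and 12 fell in deficient mice. In wild-type mice, 11 of 35 rose and 12 fell. Of the 42 other hypoxia genes, 5 rose and 26 fell in deficient mice, and 8 rose and 25 fell in wild-type mice. Their medians were -1.08 and -0.84. Of all genes tested, 29.0% rose and 30.6% fell in deficient mice, and 34.4% and 35.5% in wild-type mice. The counts of the other glycolysis genes were near these shares.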

How the data were processed

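Poly(A) RNA of sorted MSCs and sorted OBs was measured in 16 libraries of 4 groups, labelled with 8 animal numbers, 4 per genotype. As the RNA of an OB library may not come from 1 mouse, mouse letters and the mouse block follow the labels alone. The table held signal values that the authors made by dividing gene read counts by 1 DESeq2 size factor per library; DESeq2 1.24.0 and the mm10 build are named per the submitters' processing notes. For the aligner, the counting program, its handling of strand and of multi-copy genes, and the annotation, the status is: not given in the sources used here. Whole reads were recovered from the steps of the deposited values (100% of values within 0.01 of a whole number), and the limit that a count of 0 allows, 3 reads, corresponds to 3.52 to 4.51 in MSC libraries and 1.95 to 2.36 in OB libraries on the normalized scale, covering counting error only.

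Tests used limma 3.58.1 (R 4.3.3, trend) on log2 of the normalized count plus 1. Genes needed at least 10 normalized counts in at least 4 of the libraries fitted, and p-values were adjusted by Benjamini and Hochberg over all genes tested, with a threshold of 0.05. Adjusted p-values in the text come from limma unless another tool is named, and fold changes are on the log2(value + 1) scale. Alternatives were edgeR 4.0.16 and DESeq2 1.42.0 on recovered reads, another pseudocount (5), filter or normalization, a fold of 2 or more, covariates and left-out libraries. Scripts were tested on simulated data with 200 changed genes. By genotype, 0% of 1.5-fold and 37% of 2-fold changes were recovered in MSCs, and 23.5% and 79.5% in OBs. For the difference between genotype effects it was 0% and 28%. For OBs against MSCs it was 0% and 35% in deficient mice and 15% and 70.5% in wild-type mice. In the real OB against MSC comparisons far more than 200 genes passed, which makes the adjusted threshold more lenient than in the simulation. These last rates therefore do not describe those comparisons. A member that did not pass is in any case not shown to be unchanged. Replicate pairs differed by more than sampling noise (chi-square per degree of freedom 10.3 to 128). Animal numbers in the labels pair the MSC and OB library of a mouse; deviations of paired libraries correlated at 0.0241 to 0.285, and 7 of 8 libraries correlated best with their own number. Members and gene lists were chosen with earlier results of these data known. All 34 members are described; other pathway genes are named where they passed a genotype comparison or had the smallest p in a direction.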

Additional observations from a re-analysis of the deposited data

Results flagged for a closer look

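In 10 of the 136 groups of 4 libraries examined (34 genes in each group), 1 library stood apart from the other 3 by Dixon's criterion at the 95% level for 4 samples (the gap to the nearest library as a share of the group's range), where chance gives about 1 in 20. Wild-type MSC library D was the highest of its group for Hk1 (3029.62 normalized counts), Eno1 (2904.89), Ldha (7040.57) and Hif1a (5760.19). The library labelled D was also highest for Ldha in wild-type OBs (6199.20). In deficient MSCs, library F was the highest for Ldha (5179.42) and library E the lowest for Ldhb (250.02). In OBs, deficient H was the highest for Slc2a3 (1645.29), and wild-type B was the highest for Pfkm (937.10) and the lowest for Ndrg1 (1725.27).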

How the results depend on the processing

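The 106 results on single members followed here are a selection. Each had an unadjusted p under 0.05 in the main fit, passed under some setting, or was the extreme of its role between genotypes. The counts that follow hold for this selection and not for members in general. Of 933 values under other settings, 866 kept their direction and their side of the threshold. Of the rest, 19 no longer passed, 24 newly passed and 24 turned in sign. Leaving out 1 library gave 896 values, of which 818 kept both, 44 no longer passed, 21 newly passed and 13 turned. The causes were not tested. In deficient against wild-type MSCs, 159 genes and 2 members passed, against 1180 and 8 with DESeq2, 2246 and 10 in a fit of all 16 libraries, 8 and 0 with the number series, 2 and 0 with the muscle level, 0 and 0 without both muscle-marked libraries, and 46 and 0 with the Ddx3y level, an alternative chosen after seeing the data. A fold of 2 or more left 0 members. Leaving out 1 library gave 0 to 2261 genes (2261 without deficient F), 0 to 13 members, enzyme medians of -0.56 to -0.31 and hypoxia target medians of 0.46 to 0.65. In deficient against wild-type OBs, 4 genes and 0 members passed, against 191 and 1 with DESeq2, 236 and 1 with the stroma level, and, with 0 members each, 7 genes with quantile normalization, 24 with all 16 libraries, 9 with the number series, 8 with the Ddx3y level and 88 without both stroma-marked libraries. The hypoxia target median there was 0.1068 with a filter of 50, which tested fewer targets, against 0.41. Leaving out 1 library gave 3 to 108 genes (108 without deficient H, 30 without deficient F and 20 without deficient E), 0 members (lowest 0, highest 0), enzyme medians of -0.17 to -0.08 and target medians of 0.29 to 0.53. For OBs against MSCs, a fold of 2 or more left 5480 genes and 12 members in deficient mice and 6009 and 11 in wild-type mice, and quantile normalization gave an enzyme median of 0.86 in deficient mice. The ranges without 1 library were 7458 to 8891 genes, 19 to 23 members, enzyme medians of 0.56 to 0.71 and target medians of -1.48 to -1.16 in deficient mice, and 9505 to 10086 genes, 24 to 28 members, 0.31 to 0.57 and -1.02 to -0.78 in wild-type mice. For the difference between genotype effects, 2 genes passed, against 0 with a pseudocount of 5, 4 without a filter, 1 with a filter of 50, 1 with edgeR and 142 with DESeq2, and 0 to 571 without 1 library (571 without deficient MSC library F), with 0 to 2 members, enzyme medians of 0.17 to 0.37 and target medians of -0.31 to 0.03. With the mouse as a replicate block, 8978 genes and 26 members passed in deficient mice, 10216 and 28 in wild-type mice, and 3 genes and 0 members for the difference, and the block changed no other call of a member than those given above.

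Signs turned mostly for members near 0. In MSCs by genotype, Epas1 was at -0.0021 with quantile normalization, -0.0179 with edgeR, -0.0135 with DESeq2, -0.15 (-0.1450) with the muscle level and -0.29 without both muscle-marked libraries, and -0.27 to 0.25 without 1 library. Vegfa was at 0.0068 with the muscle level and 0.0302 without both muscle-marked libraries, and Slc2a3 at 0.0589 with the Ddx3y level and -0.21 to 0.10 without 1 library. In OBs by genotype, Hk2 was at -0.10 with the Ddx3y level, -0.0264 with the stroma level, -0.12 without both stroma-marked libraries and -0.11 to 0.22 without 1 library. Slc2a1 was at -0.0340 with the Ddx3y level, -0.0015 without both stroma-marked libraries and -0.0351 to 0.13 without 1 library. Slc2a3 was at 0.0083 with the stroma level and 0.0104 without both stroma-marked libraries, Epas1 at -0.25 without them, and Vegfa at 0.0002 with edgeR and -0.14 to 0.0673 without 1 library. For OBs against MSCs in wild-type mice, quantile normalization gave 0.0907 for Aldoa, 0.35 for Pkm and 0.36 for Ldha, and Ldha was at -0.0874 to 0.0520 without 1 library. In deficient mice Pkm was at 0.53 with quantile normalization and -0.17 to 0.13 without 1 library, and Egln3 at -0.11 with edgeR, -0.17 with DESeq2, -0.34 without both muscle-marked libraries and -0.16 to 0.84 without 1 library. At 4 libraries a group, members such as Aldoc, Eno2, Ankrd37 and Adm, with values under 50 in some libraries, carry the widest relative counting error.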
